A study of Mus musculus with 6 samples.

Results

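The 9 genes Ppp2r2a, Rhoa, Ppp6c, Arid1a, Rasa1, Lats2, Hif1an, Rhobtb1 and Stk40 have each been reported elsewhere as targets of miR-31. They were followed here in induced regulatory T (iTreg) cells with and without miR-31. They were taken from those reports, but the choice was made with earlier results of these data known. Every probe with one of these gene names was used, which gave 20 of the 41174 probes on the array, for 9 of the 27376 gene names. RNA came from iTreg cells of 3 conditional knockout (cKO) animals, genotype miR-31 fl/fl with CD4 Cre, and of 3 miR-31 fl/fl controls, all on the C57BL/6 background, with 1 one-colour array per mouse. Both groups carry the floxed miR-31 allele, and the CD4 Cre transgene, which is active from the thymus on in cells that have expressed CD4, was present in the cKO group only. Naive T cells, sorted as CD4+CD25-Foxp3gfp-CD62Lhi, were cultured for 4 days with anti-CD3 at 5 μg/ml on the plate and anti-CD28 at 2 μg/ml in solution. TGF-β1 was at 5 ng/ml. For IL-2 the sample labels give 40 ng/ml and the methods of the study a lower dose. The Foxp3gfp gate relies on a reporter allele that the study crossed in for some experiments. Its methods for the arrays do not name that allele. The methods give an age of 6 weeks for mice that served as a source of T cells, with spleen and lymph nodes as the organs. No array value of miR-31 itself was analysed here.

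A microRNA guides a silencing complex to partly complementary stretches of messenger RNA, mostly in the 3′ untranslated region, through its seed near the 5′ end. The pairing lowers translation and often also the level of the messenger RNA, so that loss of a microRNA can raise the RNA of its targets, while an array does not see an effect on protein alone. miR-31 is best known from epithelia and tumours, where the genes above act in oxygen sensing, growth control, signalling through small GTPases, dephosphorylation and chromatin remodelling. The mature strand is shown because its seed defines what a matching site must contain. It lies on the minus strand of chromosome 4 at chr4:88910614-88910635 (GRCm38.p6, RefSeq), and the capitals mark the seed, bases 2 to 8.
mmu-miR-31-5p: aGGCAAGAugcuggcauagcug

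Of the 20 probes, 1 of the 2 probes for Rhobtb1 passed the test, at a value on the threshold, and the other 19 did not. Values are log2 signals minus the 75th percentile of the array, so that 0 is the level of that percentile, and differences are cKO minus control with their standard error (SE) and 95% interval from limma, adjusted by Benjamini-Hochberg over all 22281 tested probes. A probe was tested if 3 or more of the 6 arrays had it well above background, and all 20 met this. An adjusted p under 0.05 was reached by 1 member probe in the higher direction, against 0.148% of all tested probes, and by 0 in the lower direction, against 0.0943%. With limma's unadjusted p under 0.05, 2 of the 20 were higher, against 11.5% of all tested probes, and 2 were lower, against 11.4%. All 3 cKO arrays lay above all 3 control arrays for 2 member probes, against 15.9% of all tested probes, and below them for 2, against 20.7%. The median difference of the 20 probes was 0.02, and that of all tested probes was −0.04. The exact permutation test of 3 arrays against 3 cannot give a two-sided p under 0.10 for a single probe. The 4 probes whose groups did not overlap had this smallest value, and the other 16 did not.

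**Figure D1:**
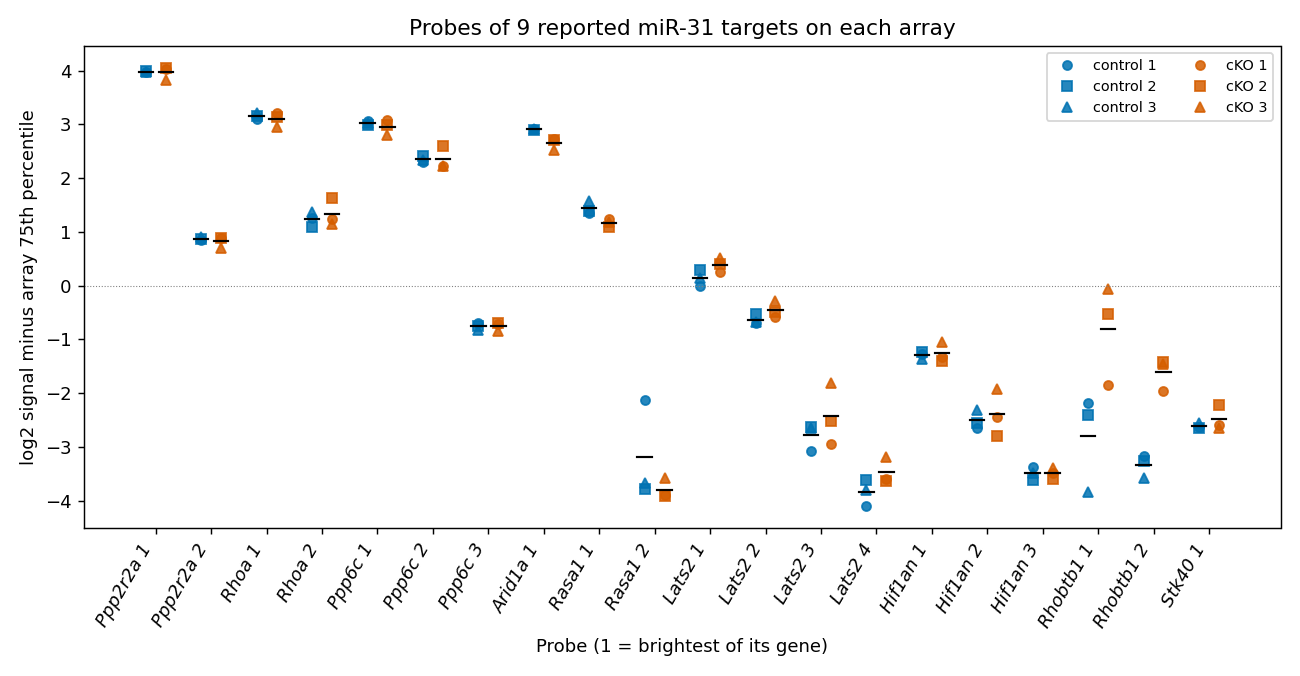
Log2 signal minus the 75th percentile of the array (y axis) for the 20 probes (x axis, 1 being the brightest probe of its gene), with control arrays in blue, cKO arrays in orange, a marker shape for each replicate and a black bar at each group mean. The dimmer Rhobtb1 probe has the widest gap between the groups, 1.22, and the brighter one a gap of 0.33 with a wide spread within each group. Control 1 lies alone at −2.12 for the dimmer Rasa1 probe.

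The arrays differed in ways that touch these results. cKO 1, 2 and 3 and control 1 were on slide 1, and control 2 and 3 were on slide 2, so that slide and group are partly confounded. Correlations between arrays over tested probes with a value on every array were 0.948 to 0.979 for the 5 pairs that held cKO 3 and 0.967 to 0.989 for the other 10 pairs. Markers of T cells (6 of 6) and of regulatory T cells (6 of 6) were well above background on all arrays, Foxp3 among them. Both CD8 markers were too, as were 1 of 4 B cell markers (Cd79b), 0 of 4 myeloid, 2 of 4 epithelial (Epcam and Cdh1) and 1 of 3 erythroid markers (Hbb-b1). The summed linear signal of the T cell list was 197 to 264 times the 75th percentile in cKO and 179 to 192 in control, and the sum of the regulatory T cell list was 172 to 196 and 138 to 176. Of the T cell list 5 genes were higher and 1, Cd3e, was lower, at −0.28 (adjusted p = 0.18 in limma) without overlap of the groups. The genes of the regulatory T cell list went both ways, 4 higher and 2 lower. Foxp3, its defining gene, read 3.16, 3.12 and 2.45 in cKO, below 3.42, 3.42 and 3.76 in control. That was a difference of −0.62 (adjusted p = 0.19 in limma). By flow cytometry the study reports more iTreg cells from cKO than from control naive T cells, a share of cells and not an RNA level. How that relates to the RNA values here was not tested. Il2ra differed by −0.56 (adjusted p = 0.33 in limma). Ctla4 was higher by 0.94 (adjusted p = 0.14 in limma), without overlap of the groups. Ikzf2 differed by 0.51, Tnfrsf18 by 0.40 and Ikzf4 by 0.06. Tnfrsf18 was the brightest gene of the list, with means of 7.22 in cKO and 6.81 in control, and weighs most in its sum. The sum of the CD8 list was 3.87 to 4.34 in cKO and 4.42 to 5.61 in control, and that of the epithelial list 1.30 to 1.95 and 0.805 to 0.901. The erythroid sum was 0.462 to 1.00 and 0.160 to 0.319, and it follows Hbb-b1, with means of −0.79 and −2.89. Hba-a1 went the other way without overlap, with means of −5.61 in cKO and −3.73 in control. It was well above background on 0 cKO and 2 control arrays, and Alas2 on none. The B cell sums were 0.538 to 1.26 and 0.372 to 0.617, and the myeloid sums 0.132 to 0.141 and 0.0951 to 0.285. The part of other cells in the differences below was not tested. In RNA from whole cultures, fewer cells of a type and less RNA per cell cannot be told apart.

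Rhobtb1 encodes an atypical small GTPase with BTB domains that serves as an adaptor of cullin 3 ubiquitin ligases. Its brighter probe, A_52_P614517 (mm9 chr10:68754417-68754476, plus strand), read −1.85, −0.53 and −0.06 on cKO 1, 2 and 3 and −2.18, −2.40 and −3.83 on control 1, 2 and 3. All 3 cKO values were above all 3 control values, with a gap of 0.33 between the groups and a wide spread within each. The difference was 1.99 (SE 0.61, 95% interval 0.52 to 3.46), a 3.97-fold higher signal, with an adjusted p of 0.16 in limma. The dimmer probe, A_51_P146802 (mm9 chr10:68752587-68752646, plus strand), read −1.95, −1.42 and −1.45 on cKO 1, 2 and 3 and −3.17, −3.26 and −3.58 on control 1, 2 and 3. Here the groups lay further apart, with a gap of 1.22, and each group was tighter. Each probe is 60 bases long, and the first 30 bases of each are shown to identify the 2 probes, whose signals come from their full length.
A_52_P614517: aaccaagtggcttgttcatttggttgacac
A_51_P146802: acaagccctgccaccaatgagcagggacat
The signal of the dimmer probe rose by 1.73 (SE 0.19, 95% interval 1.26 to 2.20), or 3.32-fold, with an adjusted p of 0.0495 in limma.

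That adjusted p lies on the threshold of 0.05, and the set of spots over which the 75th percentile is taken is enough to move it to the other side. With the percentile over probes it was 0.0518, over the tested probes 0.0558, over all spots with the controls 0.0506 and over spots without outliers 0.0491. These bases were tried after the value had been seen. Over 24 alternatives in all, 8 kept the call and 16 lost it, while the difference stayed between 1.05 and 1.90. Leaving out any 1 of the 6 arrays ended the call, with adjusted p between 0.056 and 0.19. Against control 1 alone, the control array on the same slide, the cKO mean was higher by 1.57 for the dimmer and 1.36 for the brighter probe. The alternative with slide as a term gives these same differences, so it is not a further comparison. Both probes are annotated to the same transcript, share no run of more than 5 bases and gave differences of the same sign under every alternative.

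**Figure D2:**
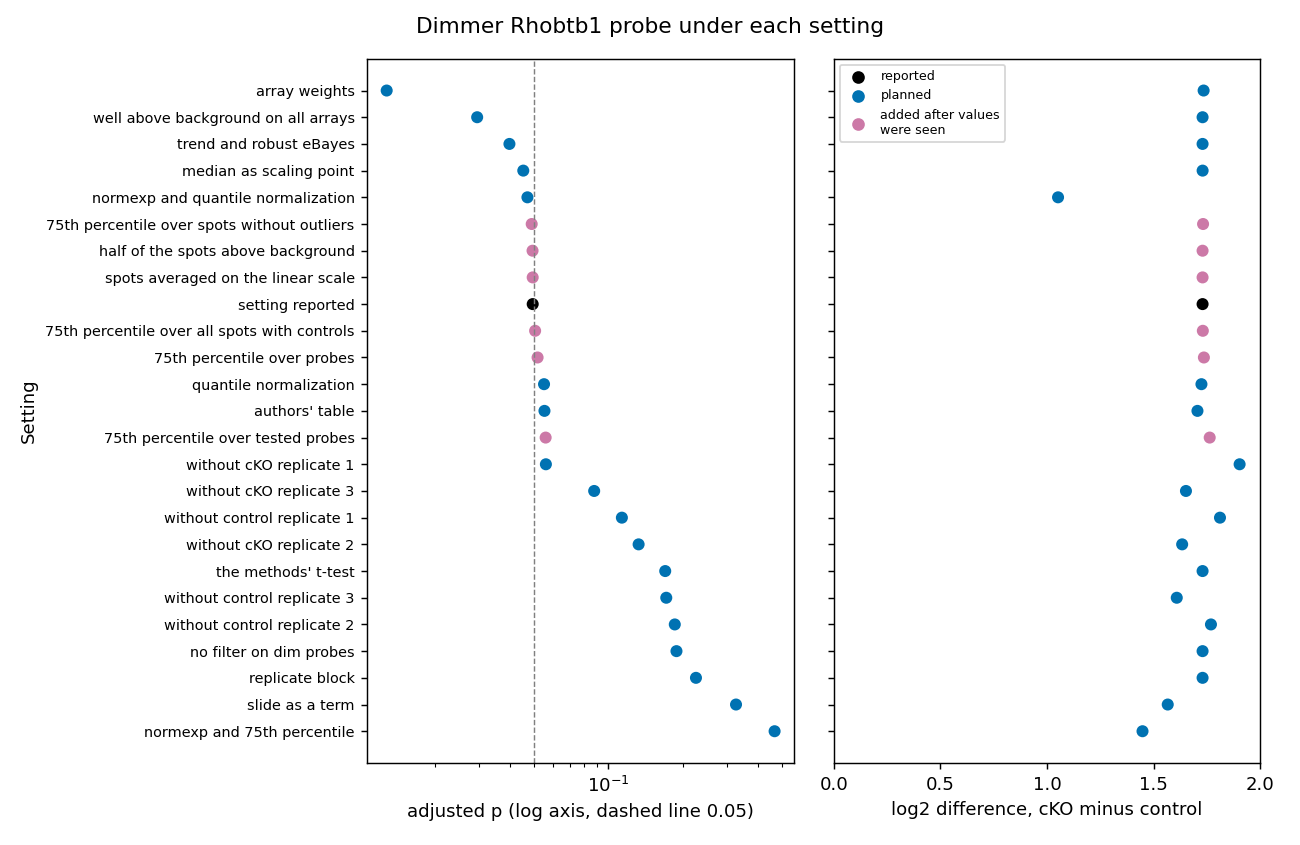
Adjusted p (left, log axis, dashed line at 0.05) and log2 difference cKO minus control (right) of the dimmer Rhobtb1 probe under the reported setting (black), 18 alternatives listed in the design (blue) and 6 added after values were seen (pink). The differences stay between 1.05 and 1.90, and 8 of the 24 alternatives lie below 0.05.

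Rhoa encodes the GTPase that drives actin stress fibres through the ROCK kinases. Its brighter probe, A_52_P110965 (mm9 chr9:108239160-108239219, plus strand), read 3.21, 3.14 and 2.96 on cKO 1, 2 and 3 and 3.101, 3.16 and 3.21 on control 1, 2 and 3. The groups overlapped, and the difference was −0.06 (SE 0.11, 95% interval −0.32 to 0.21). The second probe, A_52_P428496 (mm9 chr9:108239913-108239972, plus strand), read 1.23, 1.62 and 1.15 on cKO 1, 2 and 3 and 1.26, 1.10 and 1.37 on control 1, 2 and 3. These overlapped as well, with cKO 2 highest, and the difference was 0.09 (SE 0.16, 95% interval −0.30 to 0.48). For the brighter probe the interval leaves room for a fold between 0.798 and 1.16.

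Among 13 further genes on the array for small GTPases related to Rhoa and their effectors, each taken by its brightest probe, 12 were tested, and the median difference was 0.07. After adjustment 1 rose and 0 fell, against 0.148% and 0.0943% of all tested probes. At an unadjusted p under 0.05, 2 were higher and 1 was lower, against 11.5% and 11.4%. The one that rose after adjustment was Rhoc, a close relative of Rhoa known for its part in cell motility. Rhoc read 2.72, 3.08 and 3.61 on cKO 1, 2 and 3 and 0.82, 0.47 and −0.13 on control 1, 2 and 3, so that the groups were far apart. The difference was 2.75 (SE 0.32), or 6.73-fold, with an adjusted p of 0.0495 in limma, and the call was kept in 8 of 24 alternatives. This adjusted p is the one of the dimmer Rhobtb1 probe, while limma's unadjusted p were 1.1e-04 for Rhoc and 9.0e-05 for that probe. Benjamini-Hochberg can give neighbouring ranks a shared value, so these calls are not independent of each other. Leaving out any 1 of the 6 arrays ended this call too, with adjusted p between 0.056 and 0.19. It left 0 to 1 calls among all tested probes. Rhog, which acts upstream of Rac, differed by 0.44 (adjusted p = 0.15), and Rhob by −0.63 (adjusted p = 0.21). Rhob was well above background on 2 arrays of each group.

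Rasa1 encodes a GTPase-activating protein that turns Ras off. Its brighter probe, A_51_P498322, reads the minus strand of mm9 chr13:85356600-85357829, a stretch of 1230 bases for 60 bases of probe. It read 1.23, 1.09 and 1.18 on cKO 1, 2 and 3 and 1.35, 1.39 and 1.57 on control 1, 2 and 3. All cKO values were below all control values, with a gap of 0.12. The difference was −0.27 (SE 0.11, 95% interval −0.53 to −0.005), with an adjusted p of 0.21 in limma. The dimmer probe, A_52_P252872 (mm9 chr13:85384098-85384157, minus strand), is annotated to the cDNA clone AK042801 and not to the RefSeq transcript. It read −3.90, −3.91 and −3.59 on cKO 1, 2 and 3 and −2.12, −3.79 and −3.67 on control 1, 2 and 3. The probe was well above background on 2 of the 3 cKO arrays and on all 3 control arrays. Control 1 stood alone, 1.61 above the mean of the other controls. The difference of −0.60 (SE 0.45, adjusted p = 0.43 in limma) was −0.07 without that array.

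Of 8 Ras proteins and RasGAPs analysed here, all 8 were tested and 0 passed the adjusted threshold in limma or an unadjusted p under 0.05. Over all tested probes, 11.5% were higher and 11.4% lower at that unadjusted p. The median difference of the 8 was −0.06. The highest was Rasal1, a calcium-responsive RasGAP, at 0.26 (adjusted p = 0.39), and the lowest was Rasal2, another RasGAP, at −0.34 (adjusted p = 0.69). Rasal2 was well above background on 1 cKO and 2 control arrays.

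Ppp2r2a encodes a regulatory B subunit that directs the PP2A phosphatase to its substrates. Its brighter probe, A_51_P301736 (mm9 chr14:67634860-67634919, minus strand), read 4.03, 4.05 and 3.83 on cKO 1, 2 and 3 and 3.97, 3.99 and 3.98 on control 1, 2 and 3. The controls lay almost on top of each other, inside the range of the cKO arrays. The difference was −0.01 (SE 0.10, 95% interval −0.26 to 0.25), while the overlapping values of the second probe, A_52_P206627 (mm9 chr14:67641163-67641222, minus strand), ran from 0.70 to 0.89 in cKO and from 0.85 to 0.90 in control. Its difference was −0.04 (SE 0.10, 95% interval −0.29 to 0.21). Of 12 other PP2A subunits on the array, 10 were tested, with a median difference of −0.09, and 0 passed the adjusted threshold in limma. At an unadjusted p under 0.05, 0 were higher and 1 was lower, against 11.5% and 11.4% of all tested probes. That one was the scaffold subunit Ppp2r1b, the lowest at −0.49 (adjusted p = 0.20), and the highest was the regulatory subunit Ppp2r5b at 0.35 (adjusted p = 0.23).

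Ppp6c encodes the catalytic subunit of the PP6 phosphatase. Its brightest probe, A_51_P256282 (mm9 chr2:39052338-39052397, minus strand), read 3.09, 2.99 and 2.81 on cKO 1, 2 and 3 and 3.05, 2.99 and 3.02 on control 1, 2 and 3. The groups overlapped, with cKO 3 lowest. The difference was −0.06 (SE 0.11, 95% interval −0.33 to 0.21), and those of the other 2 probes were close to 0. A_52_P204440 (mm9 chr2:39050511-39050570, minus strand) ran from 2.22 to 2.60 in cKO and from 2.29 to 2.41 in control, a difference of 0.004 (SE 0.14). A_52_P243109 (mm9 chr2:39055579-39055638, minus strand) ran from −0.85 to −0.70 in cKO and from −0.83 to −0.70 in control, a difference of 0.01 (SE 0.10). The 6 PP6 subunits on the array were all tested, 0 passed the adjusted threshold in limma or an unadjusted p under 0.05, and their median was −0.11. Over all tested probes, 11.5% were higher and 11.4% lower at that unadjusted p. Among the 6 subunits Ppp6r2 was highest at 0.21 (adjusted p = 0.40) and Ankrd52 lowest at −0.37 (adjusted p = 0.36).

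Lats2 encodes a Hippo pathway kinase that phosphorylates the coactivators YAP and TAZ and keeps them out of the nucleus. The brightest of its 4 probes, A_52_P315345 (mm9 chr14:58308807-58308866, minus strand), read 0.25, 0.41 and 0.51 on cKO 1, 2 and 3 and 0.00, 0.29 and 0.14 on control 1, 2 and 3. The groups overlapped only through cKO 1 and control 2. The difference was 0.25 (SE 0.13, 95% interval −0.06 to 0.56), with an adjusted p of 0.28 in limma. The next probe, A_51_P331525 (mm9 chr14:58308835-58308894, minus strand), ran from −0.59 to −0.29 in cKO and from −0.70 to −0.52 in control, a difference of 0.17 (SE 0.12) that was 0.09 without cKO 3. A_52_P425064 (mm9 chr14:58341239-58341298, minus strand) ran from −2.95 to −1.81 in cKO and from −3.07 to −2.63 in control, a difference of 0.36 (SE 0.30) that was 0.05 without cKO 3 and 0.62 without cKO 1. A_51_P133349 (mm9 chr14:58309973-58310032, minus strand) ran from −3.63 to −3.19 in cKO and from −4.10 to −3.62 in control, a difference of 0.37 (SE 0.18) that lay between 0.23 and 0.48 with 1 array left out. This probe was well above background on 2 of the 3 control arrays. The groups overlapped on each of these 3 probes, and their adjusted p in limma ran from 0.27 to 0.48. All 4 differences were above 0, but the first 2 probes share 32 of their 60 bases and are not separate measurements. Against control 1 alone, the lowest control on each of the 4 probes, the cKO mean was higher by 0.24 to 0.65.

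Of 13 further Hippo genes on the array, 8 were tested, with a median of −0.12, and 0 passed the adjusted threshold in limma. At an unadjusted p under 0.05, 0 were higher and 1 was lower, against 11.5% and 11.4% of all tested probes. That one was Mob1b, a coactivator of the LATS kinases, at −0.49 (adjusted p = 0.19). The upstream kinase Stk4 was highest at 0.21 (adjusted p = 0.25), and the transcription factor Tead1 lowest at −0.81 (adjusted p = 0.23). Yap1, the coactivator that LATS kinases act on, was not well above background on any array.

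Stk40 encodes a pseudokinase related to the Tribbles proteins and has a single probe, A_51_P363657 (mm9 chr4:125817163-125817222, plus strand). It read −2.59, −2.23 and −2.64 on cKO 1, 2 and 3 and −2.63, −2.64 and −2.56 on control 1, 2 and 3. cKO 2 was the highest array and the other 5 lay close together. The difference was 0.12 (SE 0.14, 95% interval −0.21 to 0.46), and it was −0.01 without cKO 2. All 3 Tribbles genes were tested and 0 passed the adjusted threshold in limma or an unadjusted p under 0.05. Over all tested probes, 11.5% were higher and 11.4% lower at that unadjusted p. The 3 genes had a median of 0.24, with Trib1 highest at 0.41 (adjusted p = 0.29) and Trib2 lowest at −0.64 (adjusted p = 0.23).

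Hif1an encodes the asparaginyl hydroxylase that blocks coactivator binding by HIF-1α when oxygen is present. Its brightest probe, A_51_P521171 (mm9 chr19:44650157-44650216, plus strand), read −1.33, −1.39 and −1.05 on cKO 1, 2 and 3 and −1.27, −1.24 and −1.36 on control 1, 2 and 3. The groups overlapped, and the difference was 0.03 (SE 0.13, 95% interval −0.28 to 0.34). A_52_P49233 (mm9 chr19:44637898-44637957, plus strand) ran from −2.80 to −1.92 in cKO and from −2.64 to −2.32 in control, a difference of 0.12 (SE 0.24). A_51_P304076 (mm9 chr19:44642866-44642925, plus strand) ran from −3.59 to −3.40 in cKO and from −3.61 to −3.38 in control, a difference of 0.005 (SE 0.11).

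All 7 partners of Hif1an in the HIF pathway were tested, and 0 passed the adjusted threshold in limma. Of the 7, 5 were higher at an unadjusted p under 0.05 and 0 lower, against 11.5% and 11.4% of all tested probes, and the median difference was 0.63 against −0.04 over all tested probes. The highest was Epas1, which encodes HIF-2α, at 1.36 (SE 0.27, adjusted p = 0.10). Its cKO values were −0.27, −0.75 and 0.07 and its control values −1.93, −1.83 and −1.28, without overlap. The lowest was the prolyl hydroxylase Egln2 at −0.20 (adjusted p = 0.28).

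Arid1a encodes a DNA-binding subunit of the SWI/SNF chromatin remodelling complex. Its probe, A_51_P118671 (mm9 chr4:133235292-133235351, minus strand), read 2.73, 2.70 and 2.53 on cKO 1, 2 and 3 and 2.92, 2.90 and 2.92 on control 1, 2 and 3. All cKO values were below the controls, which were nearly equal, with a gap of 0.17. The difference was −0.26 (SE 0.10, 95% interval −0.51 to −0.01), with an adjusted p of 0.21 in limma. Of 13 further SWI/SNF subunits on the array, 12 were tested, and 0 passed the adjusted threshold in limma, with 2 at an unadjusted p under 0.05, both lower, against 11.4% of all tested probes, and a median of −0.20 against −0.04 over all tested probes. These were Actl6a at −0.57 (adjusted p = 0.18), the lowest, and Smarcd1 at −0.27 (adjusted p = 0.21), and the ATPase Smarca2 was highest at 0.03 (adjusted p = 0.95).

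**Figure D3:**
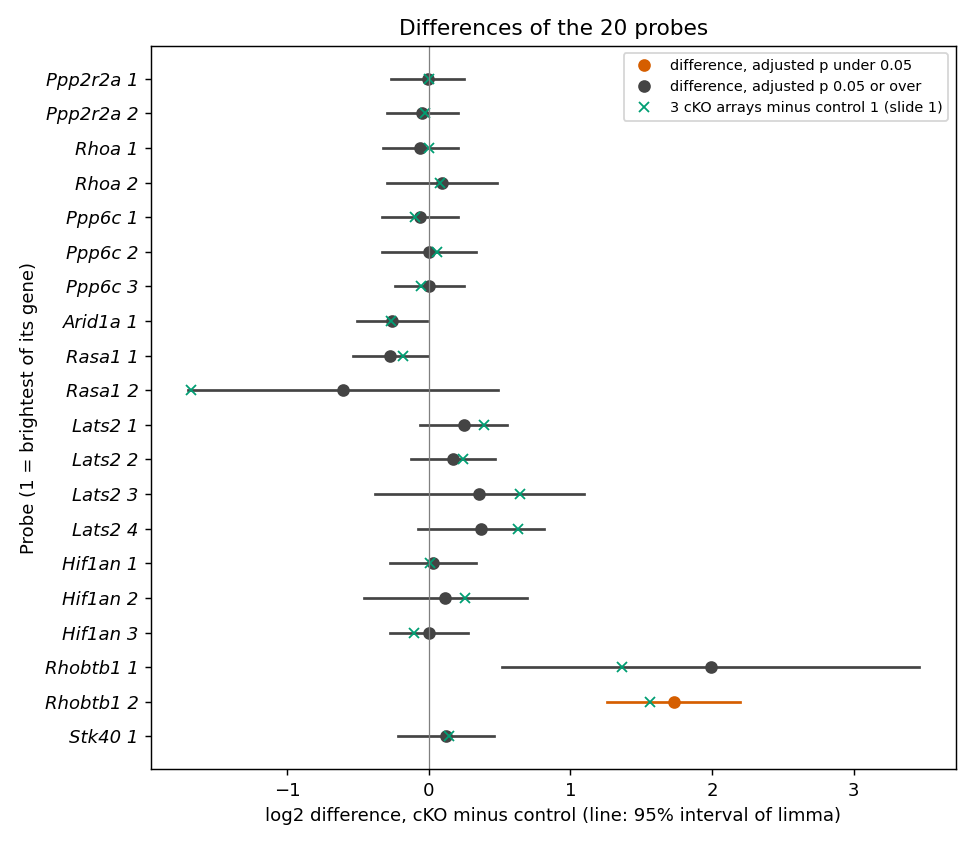
Log2 difference cKO minus control (x axis) of each of the 20 probes (y axis) as a point with its 95% interval from limma, and the mean of the cKO arrays minus control 1, all on slide 1, as a green cross. Of the 18 probes other than those of Rhobtb1, none has an adjusted p under 0.05, and their points lie between −0.60 and 0.37.

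Away from Rhobtb1, the 18 probes of the other 8 genes had a median difference of 0.005, with 11 above and 7 below 0. Over all 22281 tested probes, 9984 were above and 12297 below 0. Of the 18 probes, 13 differed by less than 0.25 in size, against 11479 of all tested probes. The median size of a difference was 0.11 over the 18 probes, 0.12 over the 20 probes and 0.24 over all tested probes. The median SE was 0.13 for the members and 0.16 for all tested probes.

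A list of 11 further genes reported as miR-31 targets elsewhere gave 5 tested genes. Of these 0 passed the adjusted threshold in limma, and the median was −0.11. At an unadjusted p under 0.05, 0 were higher and 1 was lower, against 11.5% and 11.4% of all tested probes. That one was Tiam1, an activator of Rac, the lowest at −0.45 (adjusted p = 0.20), and the integrin subunit Itga5 was highest at 0.67 (adjusted p = 0.24). Gprc5a, the target named by the study, differed by 0.96 on the brighter of its 2 probes (SE 0.25, adjusted p = 0.14 in limma), with cKO values of −0.56, −0.54 and 0.30 above control values of −1.31, −1.07 and −1.31. The study also draws on qPCR, western blot, a reporter assay of the 3′ untranslated region and double knockout mice for Gprc5a. None of that evidence was analysed here.

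**Figure D4:**
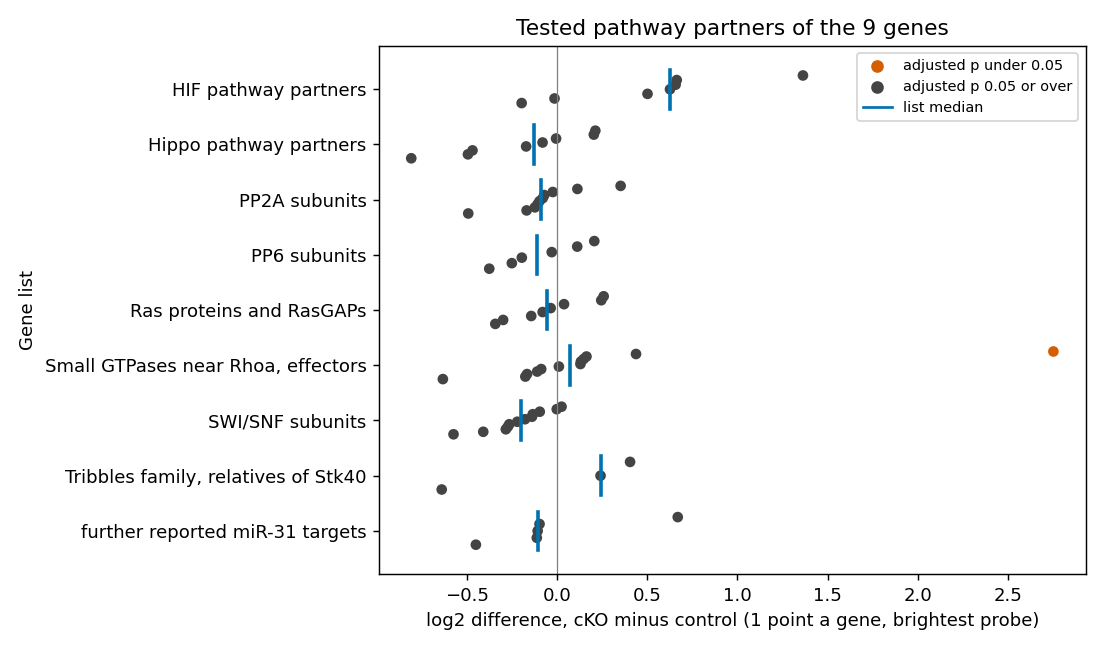
Log2 difference cKO minus control (x axis) of each tested gene of the 9 partner lists (y axis), 1 point a gene by its brightest probe, with the list median as a blue line. Rhoc, at 2.75, is the only one of the 71 tested genes with an adjusted p under 0.05.

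The letters TCTTGCC, the complement of the miR-31-5p seed read 5′ to 3′, were searched for on the given strand of the 60-base probes, which read only a small window of each transcript. None of the 20 member probes held them, against 0.323% of all 41174 probes. The absence says only that these letters are not in those windows.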

How the data were processed

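Total RNA (0.5 μg per sample) was labelled with Cy3 and hybridised to one-colour Agilent arrays. The deposited intensity values were written by the authors' scanner software, Feature Extraction (10.7.3.1 in the file headers, 9.1 in the submitters' processing notes), with probe positions on mm9. The authors also deposited a table of log2 values with near-identical distributions on the 6 arrays, read as quantile-normalized from the values alone, since the method is not given in the sources used here. Processed signals were taken as log2 minus the 75th percentile over the non-control spots of each array. Control and outlier spots were left out, and the log2 values of repeated spots were averaged. Testing used limma 3.58.1 (R 4.3.3) on probes that 3 or more of the 6 arrays had well above background, adjusted by Benjamini-Hochberg, at a threshold of 0.05. The fit was tried on simulated data with independent noise and no slide effect, so that trial does not bear on how slide or single arrays affect the calls.

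The members and gene lists were chosen with earlier results of these data known. Every probe of a member is named, and of each list the highest and lowest tested gene, genes past the adjusted threshold and, where 3 or fewer, those with an unadjusted p under 0.05. After values were seen, the rule for a probe with several spots was changed, from at least 50% of its spots above background to any spot that is no outlier, and 6 alternatives were added to 18 planned ones, among them 4 other bases of the percentile. A gene of the list of Ras proteins is not reported here, and that list's values leave it out. Replicate numbers did not pair the arrays. Each array stands for 1 mouse per the methods. The number of arrays limits the precision.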

Additional observations from a re-analysis of the deposited data

How the results depend on the processing

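The count of member probes past the adjusted threshold was 1 as reported. It fell to 0 under normexp plus 75th percentile scaling, quantile normalization, the authors' table, no filter on dim probes, the methods' t-test, slide as a term and the replicate block, and with the percentile over probes, over tested probes or over all spots with controls. It was also 0 whichever array was left out. The count over all tested probes was 54 as reported, 112 with normexp and quantile normalization, 174 when all arrays had to be above background, 105 with trend and robust eBayes, 2205 with array weights, 457 at an adjusted p under 0.10, 28 with quantile normalization, 28 with the authors' table, 29 with the percentile over probes, 24 over all spots with controls and 28 over tested probes. That count was 0 with normexp plus the 75th percentile, no filter, the t-test, the slide term and the replicate block (3627 at an unadjusted p under 0.05 under the block), and 0 to 1 when 1 array was left out. The replicate numbers did not pair the arrays (correlations of deviations −0.14, 0.0076 and −0.19). The cause of these changes was not tested.

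For the dimmer Rhobtb1 probe the adjusted p was 0.47 with normexp and the 75th percentile, 0.055 with quantile normalization and with the authors' table, 0.19 with no filter, 0.17 in the t-test, 0.23 with the replicate block and 0.33 with the slide term. It was 0.013 with array weights, 0.030 for probes above background on all arrays, 0.040 with trend and robust eBayes, 0.045 with the median and 0.047 with normexp and quantile normalization. The array weights were 0.55, 1.80 and 0.17 for cKO 1, 2 and 3 and 1.60, 5.05 and 0.71 for control 1, 2 and 3. Control 2 thus counted most in that fit and cKO 3 least.

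Of the 20 probes, 8 kept their sign under every alternative and 12 did not, in 38 cases, each with an adjusted p of 0.40 or more. With normexp plus the 75th percentile, which moved the median of all probes to 0.11, the dimmer Rhoa probe gave −0.027, the middle Ppp6c probe −0.22 and the dimmer Rasa1 probe 0.22. With normexp plus quantile normalization the brighter Ppp2r2a probe gave 0.044, the middle and dimmest Ppp6c probes −0.016 and −0.036 and the dimmest Hif1an probe −0.052. The brighter Ppp2r2a probe gave 0.052 with quantile normalization, 0.051 with the authors' table and 0.026 with the percentile over tested probes, and the dimmest Ppp6c probe −0.0014 and −0.0019 with quantile normalization and the authors' table. With array weights the Ppp2r2a probes gave 0.047 and 0.012 and the Hif1an probes −0.099, −0.11 and −0.0044. With slide as a term, each difference equals the cKO mean minus control 1, the only control on slide 1. Control 2 and 3 then enter only through the spread. In that fit the brighter Ppp2r2a probe gave 0.0036, the brighter Rhoa probe 0.00029, the dimmest Ppp6c probe −0.056 and the dimmest Hif1an probe −0.11. Leaving out 1 array gave −0.048 to 0.062 and −0.077 to 0.019 for the Ppp2r2a probes, −0.11 to 0.014 and −0.053 to 0.19 for Rhoa, −0.12 to 0.015, −0.12 to 0.068 and −0.028 to 0.053 for Ppp6c, −0.073 to 0.099, −0.12 to 0.32 and −0.055 to 0.060 for Hif1an, and −0.0066 to 0.20 for Stk40.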
